A study of Homo sapiens with 8 samples.

Results

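The respiratory chain subunits described here are 97 protein-coding genes, 84 encoded in the nucleus and 13 in mitochondrial DNA. They were chosen by symbol: the NDUFA, NDUFB, NDUFC, NDUFS and NDUFV genes of complex I, SDHA to SDHD of complex II, the UQCR genes and CYC1 of complex III, the COX4 to COX8 genes of complex IV, the ATP5 genes of ATP synthase (complex V) apart from ATP5S, and the MT-ND, MT-CO, MT-CYB and MT-ATP genes. Of 103 matching symbols in a table of 58302 genes, 97 had at least 10 counts in at least 4 libraries, and all 97 were among the 18973 genes that entered the test. NDUFA4 and its paralog NDUFA4L2 are described with complex IV, where the NDUFA4 protein is found.

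Mice carried tumours of T24, a long-established human line of bladder cancer, either as controls or with enforced expression of DDR1, a receptor tyrosine kinase that binds collagen. RNA was sequenced in 4 libraries of each group. All tumours share the 1 cell line, and neither the construct, the promoter, the age of the mice nor the growth time is given in the sources used here. Nothing in the labels says that the libraries came from separate animals, so p-values measure only how much these libraries differ, and part of that may be technical.

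DDR1 itself, the check of the labels, was measured at 138, 110, 210 and 149 CPM (a share of the library total, scaled by the trimmed mean of M values, TMM) in control replicates 1 to 4, and at 159, 343, 427 and 810 CPM in DDR1 replicates 1 to 4. The library labelled DDR1 replicate 1 lay within the control range, so the groups overlapped. The log2 fold change was 1.52 (SE 0.43, unadjusted p = 0.00612, adjusted p = 0.9998, edgeR quasi-likelihood test), and 1.79 without that library. DDR1 itself thus did not pass the adjusted test, so the absence of a call does not show that a gene was unchanged. Medians and the values of several named genes are also given without it. Totals ran from 13716285 to 32271016 expected counts per library. All 4 DDR1 libraries carry lane 8 in their titles while 2 controls carry lane 7 and 2 no lane, so lane and group cannot be told apart. DDR1 replicates 2, 3 and 4 share a title prefix, and so do control replicates 3 and 4. The 7 markers fixed for the carcinoma cells were all detected, with a summed level of 1966 to 4805 CPM in controls and 2882 to 7327 CPM in DDR1 libraries. Of these markers 5 had a log2 fold change above 0 and 2 below, KRT18 (-0.08, SE 0.27) and EPCAM (-0.21, SE 0.76). Only KRT19 had an unadjusted p under 0.05, with a log2 fold change of 0.95 (edgeR unadjusted p = 0.0363, adjusted p = 0.9998). EPCAM ran from 6.72 to 86.0 CPM over the 8 libraries. The 6 leukocyte markers summed to 13.4 to 37.5 CPM in controls and 18.9 to 47.0 CPM in DDR1 libraries. Nearly all of this was CD68 (log2 fold change 0.66, SE 0.42), while PTPRC stayed at or below 0.167 CPM, and HBB of red cells was at 0 everywhere. The summed level of 7 skeletal muscle markers ran from 16.5 to 63.1 CPM in controls and from 7.21 to 84.4 CPM in DDR1 libraries; for 6 fibroblast markers it ran from 9.43 to 59.4 and from 3.54 to 50.1 CPM, and for 5 endothelial markers from 8.65 to 55.9 and from 9.08 to 76.1 CPM. The 3 tested endothelial markers, VWF, CDH5 and PECAM1, all had a log2 fold change above 0 (median 0.66). None of them had an edgeR unadjusted p under 0.05. Within the fibroblast and muscle lists the tested genes did not move together, with 1 above 0 and 2 below in each. TNNT3 had a log2 fold change of 1.62 (SE 0.76), but MYH1 had -2.86 (SE 1.59) and MYH2 -3.01 (SE 1.54). The muscle markers ACTA1, CKM and MYLPF, the fibroblast markers COL1A2, DCN and LUM and the endothelial markers KDR and TEK stayed under 1 CPM in every library. Whether the sums reflect such cells, and the part of such cells in any result, was not tested. In bulk tumours, fewer cells of a type and less RNA per cell cannot be told apart, and whether reads of mouse host cells were removed is not known here.

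The respiratory chain sits in the inner mitochondrial membrane. Complexes I and II pass electrons from NADH and succinate to ubiquinone, complex III hands them to cytochrome c, complex IV reduces oxygen, and complexes I, III and IV pump protons that drive ATP synthesis in complex V. Mitochondrial DNA encodes the hydrophobic subunits at the centre of complexes I, III, IV and V, while complex II and the rest of each complex are made from nuclear genes and imported. The nuclear genes are known targets of NRF1, of the ETS factor GABP and of YY1, and the mitochondrial genes are transcribed as long precursors from both strands.

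Some of these genes share sequence, which bears on how reads could be assigned. MT-ATP8 and MT-ATP6 are read in different frames from 1 transcript and share 46 bases at chrM:8527-8572 (+), from the ATG of MT-ATP6 (in capitals) to the end of MT-ATP8:
MT-ATP8/MT-ATP6: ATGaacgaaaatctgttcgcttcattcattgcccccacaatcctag
MT-ND4L and MT-ND4 share 7 bases in the same way, at chrM:10760-10766. MT-ATP6 also has a nuclear copy, MTATP6P1, identical at 671 of 681 bases (98.5%). Bases 116 to 175 of each are shown because they hold the most differences in any run of that length, and the 3 capitals mark them:
MT-ATP6: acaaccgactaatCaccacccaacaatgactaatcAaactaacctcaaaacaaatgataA
MTATP6P1: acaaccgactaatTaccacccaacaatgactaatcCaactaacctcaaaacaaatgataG
MTATP6P1 was assigned 12.2 to 17.9% as many counts as MT-ATP6 in each library. UQCRH, the hinge protein of complex III, and its copy UQCRHL, itself counted among the 97, were identical at 505 of 515 aligned bases (98.1%). A stretch of their coding sequence is shown for the same reason, with 2 differences in capitals:
UQCRH: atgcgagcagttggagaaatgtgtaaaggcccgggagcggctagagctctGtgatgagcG
UQCRHL: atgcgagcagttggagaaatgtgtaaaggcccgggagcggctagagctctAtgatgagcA
UQCRHL held 6.88 to 9.75% as many counts as UQCRH, a share that cannot be separated from misassigned reads. In all, 41 of the 97 genes overlap a further gene that was tested, 20 of them in the same direction of transcription, and the protocols do not mention strand marking.

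Promoters of the nuclear genes, from 250 bases before to 50 after the start, were taken from RefSeq (GRCh38.p14) and 68 of the 84 genes had an entry. On either strand, the NRF1 motif (GCGCA and GCGC with any 1 base between them) was in 16 of the 68 (23.5%) and in 6.28% of all 27305 promoters in the table. The ETS motif CCGGAAG was in 20 (29.4%) against 10.7%, and the YY1 motif AAGATGGCG in 8 (11.8%) against 1.85%. The shares for CCAAT (33.8% against 35.7%) and for TATAAA (8.82% against 12%) were below those of all promoters. A match to NRF1, ETS or YY1, which do not contain one another, was found in 37 of the 68 (54.4%, against 17.0%). The 27305 promoters were not limited to genes detected in these tumours, while the 68 belong to genes that passed the count threshold. Whether these shares are particular to subunit genes was therefore not tested. By complex, the NRF1 motif was in 6 of 32 promoters of complex I, 2 of 3 of complex II, 4 of 7 of complex III, 0 of 12 of complex IV and 4 of 14 of complex V. The 6 examples below are those whose 60-base stretch before the start lay outside the gene as annotated in GENCODE 29, with the NRF1 match in capitals, each written 5′ to 3′ on the gene's strand. They are SDHA at chr5:218129-218188 (+), NDUFA3 at chr19:54102660-54102719 (+), NDUFA9 at chr12:4649009-4649068 (+), NDUFB4 at chr3:120596152-120596211 (+), NDUFA12 at chr12:95003779-95003838 (-) and ATP5ME at chr4:674461-674520 (-):
SDHA: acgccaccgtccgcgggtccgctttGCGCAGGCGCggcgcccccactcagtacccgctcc
NDUFA3: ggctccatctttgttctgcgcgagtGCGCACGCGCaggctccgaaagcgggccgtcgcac
NDUFA9: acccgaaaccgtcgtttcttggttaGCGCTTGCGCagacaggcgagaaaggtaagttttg
NDUFB4: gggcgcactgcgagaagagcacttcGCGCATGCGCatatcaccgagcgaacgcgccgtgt
NDUFA12: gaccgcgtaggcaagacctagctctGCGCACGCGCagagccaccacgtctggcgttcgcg
ATP5ME: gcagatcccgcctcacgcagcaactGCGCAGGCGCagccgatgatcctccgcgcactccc
Genes with and without a match had median log2 fold changes of 0.13 (16 genes) and 0.09 (52 genes) for NRF1, 0.03 (20) and 0.12 (48) for ETS, and 0.06 (8) and 0.11 (60) for YY1, so the order was not the same for the 3 motifs. These are matches of letters and not sites shown to be bound.

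Levels between genes were compared as mean CPM over the 8 libraries per kilobase (kb) of transcript. The 13 mitochondrial genes ran from 256 CPM per kb (MT-ND6) to 4009 (MT-CO1), with a median of 564, and each lay above every nuclear gene. The nuclear genes had a median of 43.7 CPM per kb and reached 177 (ATP5MF), while the median of all tested genes was 5.05. Within the nuclear set, the medians by complex were 28.8 CPM per kb for complex I, 42.0 for complex II, 46.1 for complex III, 69.6 for complex IV and 56.5 for complex V. The highest nuclear genes of each complex were NDUFS5 (142 CPM per kb), SDHB (55.9), UQCRH (129), COX7B (170) and ATP5MF (177). The lowest were the read-through gene NDUFC2-KCTD14 (1.72), SDHC (5.22), UQCRHL (2.91), COX6B2 (0.361) and the read-through gene ATP5MF-PTCD1 (2.32). Transcript length came from the annotation, and the value for SDHC rests on an unusually long annotated transcript of 13566 bases.

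**Figure D1:**
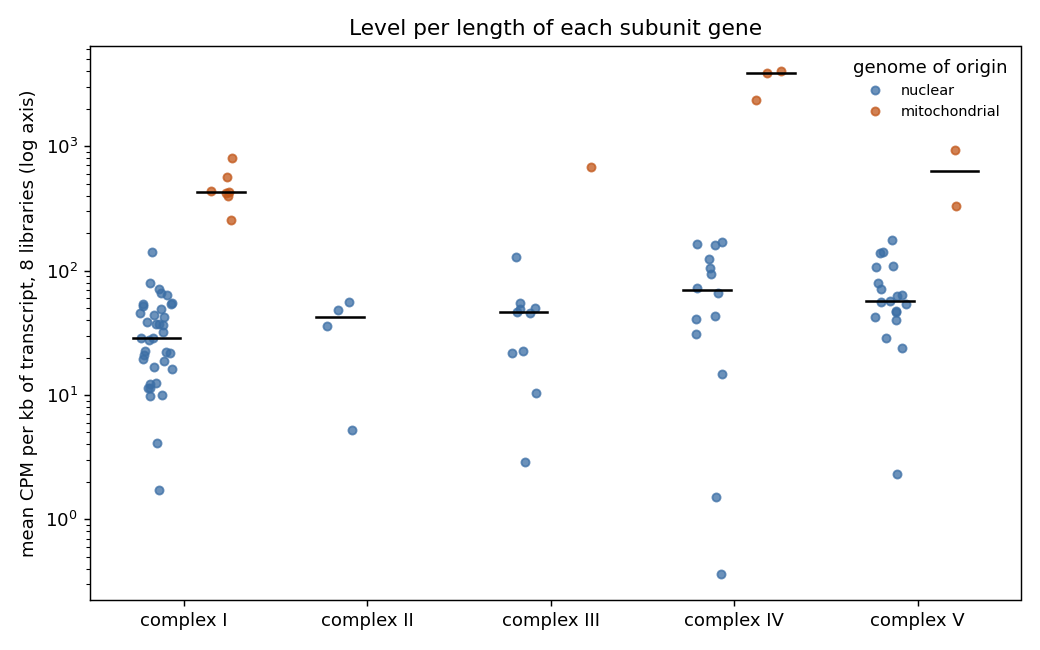
Level per length of the 97 subunit genes by complex (mean CPM per kb of transcript over 8 libraries, log axis). Points are genes, blue nuclear and orange mitochondrial, and black lines are medians where there is more than 1 gene; all orange points lie above all blue ones.

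Several tissue-restricted paralogs were at or near 0. COX4I2, COX7B2 and COX8C had 0 counts in all 8 libraries, where 3 counts would correspond to 0.0862 to 0.229 CPM. COX6A2, the heart and muscle form of subunit VIa, had 1 count in 1 library, and COX7A1, the muscle form of subunit VIIa, had 0 to 5 counts. These 5 genes and ATP5MGL, which reached 10 counts in 2 libraries, are the 6 symbols that fell below the threshold. Just inside it were COX6B2, with at least 10 counts in 5 libraries, and NDUFC2-KCTD14 and NDUFA4L2, each with at least 10 in 6.

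The comparison of DDR1 with control tumours called none of the 97 genes: with edgeR, 0 of 97 had an adjusted p under 0.05, and 0 of all 18973 genes did (0%). DESeq2 called 0 of the 97 and 16 of all genes. At an unadjusted p under 0.05, 2 of the 97 were higher (NDUFA4L2 and NDUFB10) and 0 lower, where all genes gave 1.93% higher and 2.24% lower (4.17% in either direction). In none of the 97 did the 2 groups fail to overlap, against 2.4% of all genes. The log2 fold change was above 0 for 69 and below 0 for 28 (49.5% of all genes were above 0), and its median was 0.12 against -0.003 over all genes. Without the library labelled DDR1 replicate 1, 0 of the 97 were higher at an unadjusted p under 0.05. Without control replicate 2, 11 were, and without DDR1 replicate 3, 6 were. The shares of all genes without these libraries are not given here, so these counts cannot be read as particular to the subunit genes.

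**Figure D2:**
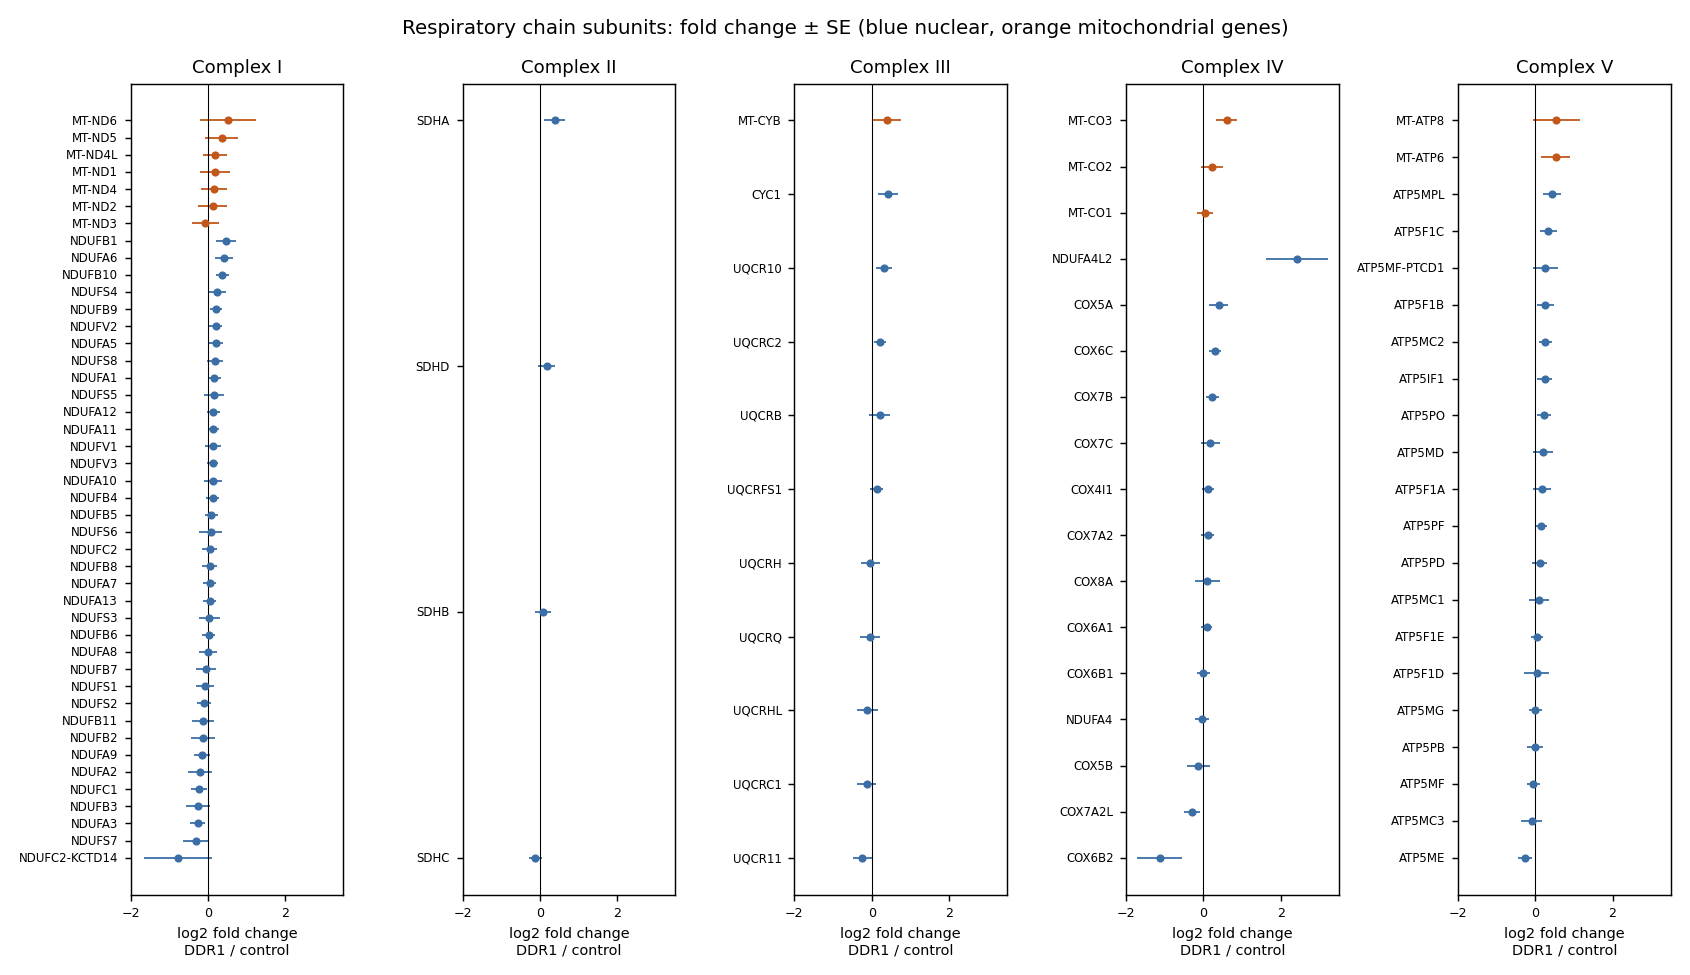
Log2 fold change of each subunit gene, DDR1 against control, in panels by complex, with bars for the standard error (4 libraries per group; blue nuclear, orange mitochondrial genes). Most values lie within 0.5 of 0, NDUFA4L2 stands at 2.42, COX6B2 and NDUFC2-KCTD14 are the lowest, and no gene passed the adjusted test.

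Among the 37 nuclear genes of complex I, 25 had a log2 fold change above 0 and 12 below, with a median of 0.04 (-0.0067 without the library labelled DDR1 replicate 1) and 0 called. The 7 core subunits, which hold the flavin and iron-sulfur clusters, had 4 above 0 and 3 below (median 0.03), and the 29 accessory subunits had 21 and 8 (median 0.07). NDUFB10, an accessory subunit of the membrane arm, had the smallest unadjusted p of the complex. It was measured at 45.9, 49.4, 43.4 and 36.8 CPM in controls and at 59.9, 52.7, 47.5 and 67.5 CPM in DDR1 libraries. Only DDR1 replicate 3 fell within the control range. Its log2 fold change was 0.37 (SE 0.16, edgeR unadjusted p = 0.0458, adjusted p = 0.9998).

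NDUFB1, also of the membrane arm, was measured at 15.7, 21.4, 9.30 and 15.5 CPM in controls against 25.8, 21.7, 20.5 and 17.3 CPM in DDR1 libraries, a log2 fold change of 0.46 (SE 0.26). NDUFA6, an accessory subunit of the LYR family, gave 0.41 (SE 0.23), with 45.8 ± 9.29 CPM in controls and 60.9 ± 17.8 CPM in DDR1 libraries (SD, n = 4). In both genes the groups overlapped and the library labelled DDR1 replicate 1 was the highest of all. NDUFS7, the core subunit with the iron-sulfur cluster that hands electrons to ubiquinone, had a log2 fold change of -0.31 (SE 0.34). It was lowest in control replicate 2 (5.39 CPM) and highest in control replicate 1 (15.1 CPM), so the controls alone spanned the DDR1 range. NDUFC2-KCTD14, a read-through gene of NDUFC2 and its neighbour, had a fold change of -0.77 (SE 0.89) on 0 to 1.98 CPM. The steadiest gene of the complex was NDUFA7, whose highest library was 1.29 times its lowest.

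Complex II, succinate dehydrogenase, also works in the tricarboxylic acid cycle. SDHA, the flavoprotein that oxidises succinate, was measured at 127, 90.4, 53.6 and 130 CPM in controls and at 114, 115, 126 and 167 CPM in DDR1 libraries (log2 fold change 0.38, SE 0.28, edgeR unadjusted p = 0.201). Control replicate 3 was the low library and DDR1 replicate 4 the high one. SDHB, the iron-sulfur subunit, and the membrane anchors SDHC and SDHD had log2 fold changes of 0.07 (SE 0.21), -0.12 (SE 0.17) and 0.17 (SE 0.22), all within the spread of the libraries. The median of the 4 genes was 0.12, and -0.031 without the library labelled DDR1 replicate 1. SDHB reversed to -0.080 without the 2 controls that carry no lane, and SDHC to 0.15 without the 2 of lane 7.

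The 10 nuclear genes of complex III were split evenly, 5 above 0 and 5 below (median 0.05), and the median turned to -0.056 without the library labelled DDR1 replicate 1. CYC1, cytochrome c1, which passes electrons on to cytochrome c, was measured at 54.0, 51.1, 54.0 and 50.7 CPM in controls and at 106, 59.8, 38.7 and 77.9 CPM in DDR1 libraries. The controls lay within 4 CPM of each other, while the DDR1 libraries lay on both sides of them. The log2 fold change was 0.43 (SE 0.27, edgeR unadjusted p = 0.143) and fell to 0.16 without the library labelled DDR1 replicate 1, which was the highest. Without DDR1 replicate 3, the only DDR1 library below the controls, it was 0.63 (unadjusted p = 0.0123).

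UQCRFS1, the Rieske iron-sulfur protein that takes electrons from ubiquinol, ran from 29.5 to 46.2 CPM with a log2 fold change of 0.13. UQCR10, a small accessory subunit, was measured at 40.4 ± 6.93 CPM in controls and 50.2 ± 13.2 CPM in DDR1 libraries (0.31, SE 0.21), and UQCR11 at 18.5 ± 4.01 and 15.7 ± 3.74 CPM (-0.24, SE 0.24; SD, n = 4). UQCRC1, a core protein on the matrix side, gave -0.13 (SE 0.24). UQCRH and its copy UQCRHL gave -0.04 (SE 0.24) and -0.11 (SE 0.28). In each of these genes the groups overlapped.

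Of the 14 nuclear genes of complex IV, 9 were above 0 and 5 below (median 0.10, and 0.022 without the library labelled DDR1 replicate 1). NDUFA4L2, known as a hypoxia-induced paralog of the complex IV subunit NDUFA4, had the largest fold change of the 97. It was measured at 0.443, 0.501, 0.947 and 0.305 CPM in controls and at 7.24, 0.506, 0.971 and 3.35 CPM in DDR1 libraries. The library labelled DDR1 replicate 1 (252 counts) and DDR1 replicate 4 (67 counts) stood above the other 6, which had 4 to 24 counts, so the other 2 DDR1 libraries did not stand apart from the controls. The log2 fold change was 2.42 (SE 0.79, edgeR unadjusted p = 0.0127, adjusted p = 0.9998), and without the library labelled DDR1 replicate 1 it was 1.5 (unadjusted p = 0.0536). As a share of NDUFA4 per kb, NDUFA4L2 was 1.83 to 5.51% in controls, and 35.4, 2.48, 6.43 and 25.4% in DDR1 replicates 1 to 4. NDUFA4 itself was measured at 31.9 ± 3.03 CPM in controls and 31.3 ± 6.71 CPM in DDR1 libraries (SD, n = 4).

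COX6B2, the testis form of subunit VIb, had the lowest fold change of the 97, on levels near the detection limit. It was measured at 0.665, 0.585, 1.81 and 0.229 CPM in controls and at 0.402, 0.506, 0.202 and 0.400 CPM in DDR1 libraries (log2 fold change -1.14, SE 0.57, edgeR unadjusted p = 0.0771). Control replicate 3 was the high library, and without it the log2 fold change was -0.40. Its ubiquitous counterpart COX6B1 was measured at 58.5 ± 7.78 and 58.3 ± 10.5 CPM (SD, n = 4), and the log2 fold change was smaller than its SE of 0.17.

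COX5A, a subunit on the matrix side, ran from 14.1 to 27.4 CPM in controls and from 21.2 to 31.95 CPM in DDR1 libraries (log2 fold change 0.39, SE 0.24), while COX5B, which binds zinc, gave -0.14 (SE 0.30). COX7A2L, a factor that joins complexes III and IV into supercomplexes, had a log2 fold change of -0.29 (SE 0.21), with 45.5 CPM in control replicate 3 and 20.3 CPM in DDR1 replicate 4 as the extremes. COX7A2, its paralog within complex IV, gave 0.10 (SE 0.16). The structural subunits COX4I1 (0.12), COX6A1 (0.09), COX7B (0.23) and COX8A (0.10) all overlapped between groups. COX6A1 was the steadiest gene of the complex, at 76.9 to 106 CPM.

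**Figure D3:**
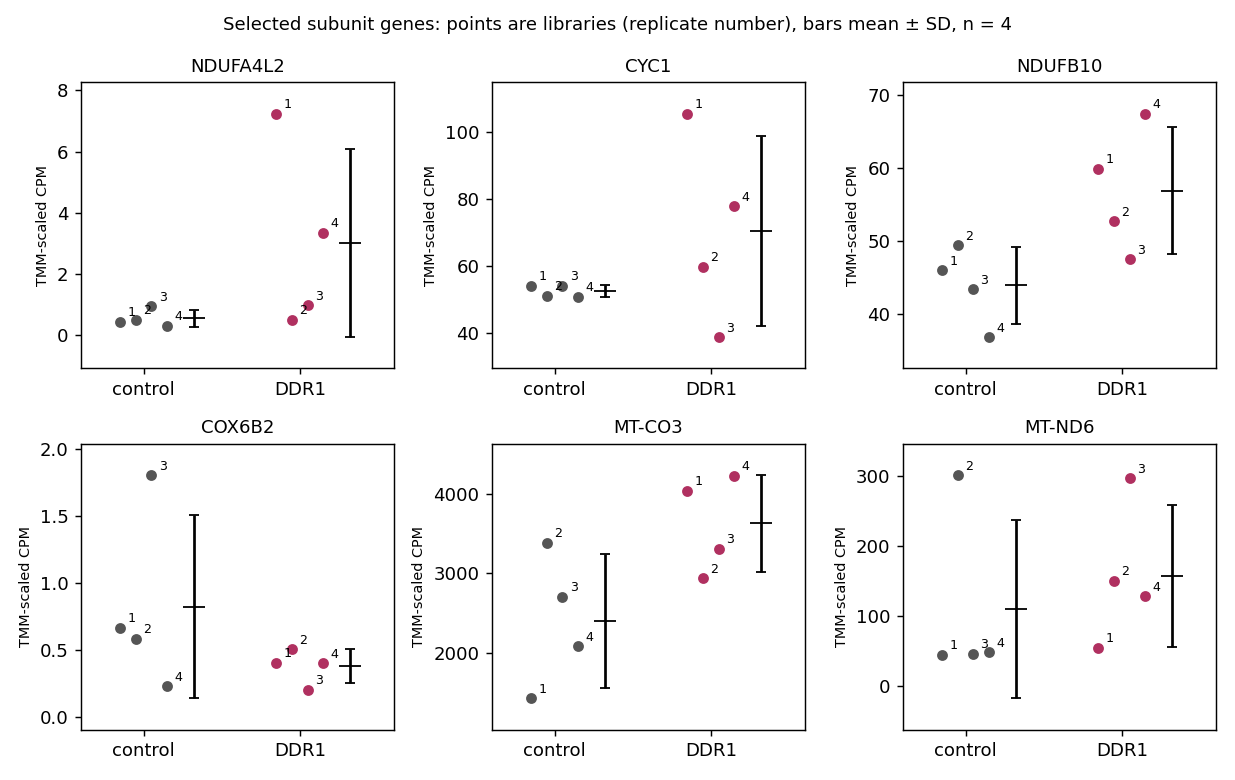
TMM-scaled CPM of 6 subunit genes in each library (numbered points; bars are mean ± SD, n = 4 per group; axes do not start at 0). For NDUFA4L2 the DDR1 mean of 3.02 CPM comes from replicates 1 and 4, for CYC1 the controls lie close together and the DDR1 libraries on both sides, and for MT-ND6 the high libraries are control replicate 2 and DDR1 replicate 3.

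ATP synthase had 15 of 19 nuclear genes above 0 and 4 below. The median was 0.14, but -0.0042 when the library labelled DDR1 replicate 1 was left out and 0.25 without DDR1 replicate 3. All 5 subunits of the catalytic F1 head, ATP5F1A to ATP5F1E, had log2 fold changes above 0, between 0.03 and 0.33, and none passed the test. ATP5F1B, the catalytic beta subunit, was measured at 243, 218, 247 and 220 CPM in controls and at 383, 276, 180 and 273 CPM in DDR1 libraries. As in CYC1, the controls lay close together while the library labelled DDR1 replicate 1 was highest and DDR1 replicate 3 lowest. ATP5F1C, the rotating gamma subunit, gave 0.33 (SE 0.22), ATP5IF1, the inhibitor of reverse ATP hydrolysis, 0.24 (SE 0.20), and the 4 peripheral stalk genes a median of 0.13. In the membrane part, ATP5MPL was measured at 21.9 ± 5.79 and 29.6 ± 5.87 CPM (0.43, SE 0.23) and ATP5ME at 28.2 ± 3.59 and 23.5 ± 3.82 CPM (-0.26, SE 0.17; SD, n = 4).

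Subunit c, which forms the rotor ring, is made from 3 genes that encode the same mature protein. ATP5MC1, ATP5MC2 and ATP5MC3 had log2 fold changes of 0.10 (SE 0.26), 0.26 (SE 0.17) and -0.10 (SE 0.27). As shares of their summed level per kb, ATP5MC2 made up 33.6, 33.4, 34.5 and 37.3% in controls and 33.1, 36.0, 43.4 and 45.9% in DDR1 libraries. ATP5MC3 made up 29.6 to 35.7% in controls and 33.1, 29.8, 27.9 and 22.8% in DDR1 replicates 1 to 4. The 3 genes were therefore near equal in every control, and DDR1 replicates 3 and 4 held more ATP5MC2 and less ATP5MC3 than any control, while DDR1 replicates 1 and 2 lay inside the control range for both apart from ATP5MC2 in the library labelled DDR1 replicate 1, which lay just below it.

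Many nuclear genes were highest in the library labelled DDR1 replicate 1. Without it, the log2 fold change of NDUFA6 went from 0.41 to 0.22, that of UQCR10 from 0.31 to 0.13 and that of SDHD from 0.17 to 0.013. ATP5MC3 went from -0.10 to -0.39, and SDHB from 0.07 to -0.077. SDHC went from -0.12 to -0.074 and NDUFC2-KCTD14 from -0.77 to -1.74. NDUFB1 (0.36), SDHA (0.44), COX5A (0.48), ATP5F1C (0.23) and ATP5MPL (0.29) remained above 0.

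The 13 mitochondrial genes had log2 fold changes between -0.07 (MT-ND3) and 0.60 (MT-CO3), 12 above 0 and 1 below, with a median of 0.21 and none called. They varied more between libraries than the nuclear genes. The SD of log2 CPM over all 8 libraries had a median of 0.59 among mitochondrial, 0.32 among nuclear and 0.39 among all tested genes, and the highest library was a median of 3.31 times the lowest for mitochondrial genes, 1.87 times for nuclear genes and 2.26 times for all tested genes. The 13 are transcribed as long precursors, MT-ND6 alone from the other strand, so they are not separate observations of the tumours. The median of 0.21 moved to 0.59 without control replicate 2, to 0.05 without control replicate 1 and to 0.04 without DDR1 replicate 3, and to 0.34 on leaving out the library labelled DDR1 replicate 1.

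**Figure D4:**
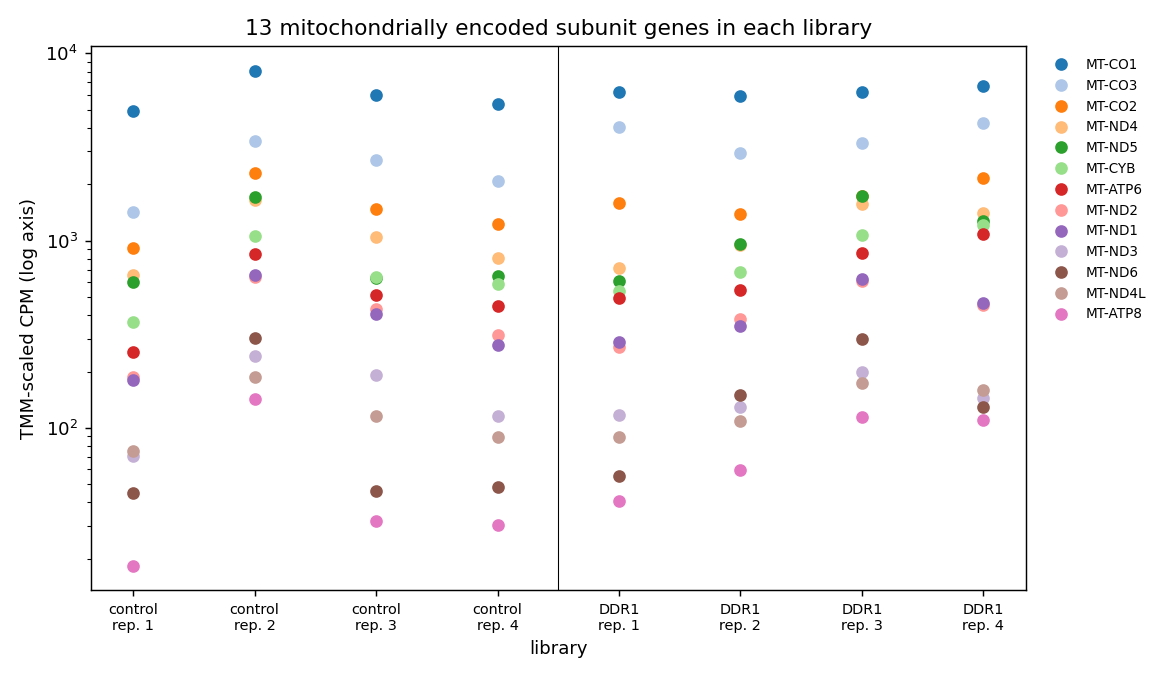
TMM-scaled CPM (log axis) of the 13 mitochondrially encoded subunit genes in each of the 8 libraries, controls left of the line. All 13 are lowest in control replicate 1, and control replicate 2 and DDR1 replicates 3 and 4 are above the gene's mean log2 CPM for all 13.

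MT-CO3, a core subunit of complex IV, was measured at 1428, 3387, 2708 and 2081 CPM in controls and at 4038, 2936, 3311 and 4230 CPM in DDR1 libraries. The 2 highest values were in DDR1 replicates 1 and 4, and control replicate 2 lay above the other 2 DDR1 libraries. The log2 fold change was 0.60 (SE 0.28, edgeR unadjusted p = 0.0587), 0.81 without control replicate 2 and 0.54 when the library labelled DDR1 replicate 1 was left out. MT-CO1, which carries the oxygen-reducing heme site, was the steadiest mitochondrial gene, at 4947, 8088, 5990 and 5372 CPM in controls and 6195, 5946, 6213 and 6701 CPM in DDR1 libraries (0.04, SE 0.21). MT-CO2, the entry point of electrons from cytochrome c, gave 0.21 (SE 0.29) on 912 to 2305 and 1388 to 2167 CPM.

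MT-CYB, the cytochrome b of complex III, was measured at 369, 1063, 637 and 586 CPM in controls and at 540, 682, 1069 and 1220 CPM in DDR1 libraries (log2 fold change 0.40, SE 0.36). MT-ATP6, the proton channel subunit of complex V, was measured at 254, 852, 514 and 445 against 496, 543, 859 and 1086 CPM (0.53, SE 0.38). MT-ATP8 was measured at 18.4, 142, 31.6 and 30.3 against 40.8, 59.9, 115 and 110 CPM (0.55, SE 0.62). In all 3 genes control replicate 2 lay above at least 2 of the 4 DDR1 libraries. Of the 13, MT-ATP8 had the widest range, with the highest library 7.74 times the lowest, while MT-ND6 had the largest SD of log2 CPM (1.19 against 1.07). MT-ATP8 gave 0.25 without control replicate 1 and 1.61 without control replicate 2, and its ratio to MT-ATP6 per kb ran from 0.202 in control replicate 3 to 0.550 in control replicate 2. The 2 genes are read from 1 transcript and share bases, and MT-ATP8 is only 207 bases long. The ratio therefore cannot be read as a difference in transcript level, and the part of read assignment in it was not tested.

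Of the 7 mitochondrial genes of complex I, MT-ND5, the antiporter-like subunit at the far end of the membrane arm, was measured at 603, 1712, 631 and 650 CPM in controls and 611, 958, 1738 and 1277 CPM in DDR1 libraries (log2 fold change 0.35, SE 0.42). MT-ND6, the only one of the 13 on the other strand, was measured at 44.6, 302, 46.1 and 48.3 CPM in controls and 55.1, 151, 298 and 129 CPM in DDR1 libraries (0.52, SE 0.71). Without DDR1 replicate 3 the log2 fold change of MT-ND6 was 0.0016 and that of MT-ND5 0.073; without control replicate 2 they were 1.77 and 0.87. For both genes control replicates 1, 3 and 4 lay close together and control replicate 2 stood far above them. MT-ND6 reached 0.252 to 0.256 of the MT-ND5 level per kb in control replicates 1, 3 and 4, 0.609 in control replicate 2, and 0.311, 0.542, 0.592 and 0.348 in DDR1 replicates 1 to 4. Because the protocols do not mention strand marking, reads of MT-ND6 may not be separable from reads of precursors of the opposite strand. MT-ND1, MT-ND2, MT-ND3, MT-ND4 and MT-ND4L gave log2 fold changes of 0.19, 0.12, -0.07, 0.16 and 0.19, each with an SE of 0.31 to 0.39. Without the library labelled DDR1 replicate 1 these were 0.34, 0.29, 0.022, 0.33 and 0.34, and MT-ND6 was at 0.80.

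The mitochondrial genes did not all move as 1 block. MT-CO1 took 50.8% of the counts of the 13 in control replicate 1 and 33.6% in DDR1 replicate 3. The ratio of MT-CO3 to MT-ND5 per kb was 5.47, 4.57, 9.91 and 7.40 in controls and 15.3, 7.08, 4.40 and 7.66 in DDR1 libraries. The library labelled DDR1 replicate 1 therefore combined an MT-CO3 level near the top with MT-ND levels near those of the low controls.

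Nuclear and mitochondrial subunits were high in different libraries. In the library labelled DDR1 replicate 1, 71 of 84 nuclear genes were above their own mean log2 CPM over the 8 libraries and 40 were at their highest, but 10 of 13 mitochondrial genes were below theirs. In DDR1 replicate 3 the pattern was opposite, with 14 of 84 nuclear genes and 13 of 13 mitochondrial genes above their mean. All 13 mitochondrial genes were lowest in control replicate 1, and 9 were highest in control replicate 2. The median deviation from the gene mean, in log2 CPM, was 0.11, -0.02, -0.10 and -0.13 in control replicates 1 to 4 and 0.29, 0.10, -0.21 and -0.01 in DDR1 replicates 1 to 4 for nuclear genes. For mitochondrial genes it was -1, 0.67, -0.05 and -0.38 in controls and -0.41, -0.07, 0.57 and 0.44 in DDR1 libraries. By complex, the nuclear medians ran from 0.24 to 0.36 in the library labelled DDR1 replicate 1 and from -0.26 to -0.13 in DDR1 replicate 3. They spread further in control replicate 3, from -0.38 in complex II to -0.0070 in complex IV.

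**Figure D5:**
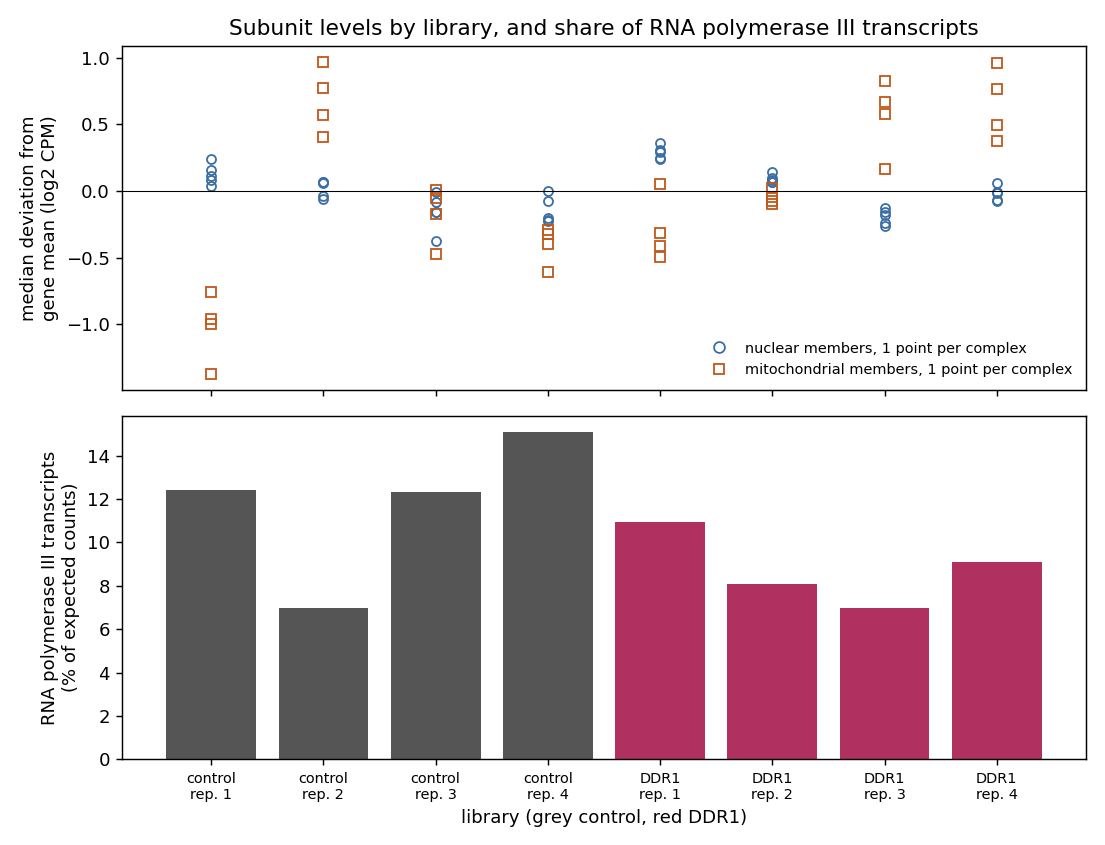
Upper panel, median deviation of subunit genes from their own mean (log2 CPM) in each library, with 1 point per complex, blue circles nuclear and orange squares mitochondrial. Lower panel, the share of counts from RNA polymerase III transcripts, which was lowest (6.98%) in control replicate 2 and 6.99% in DDR1 replicate 3, where mitochondrial genes were high. The next lowest share, 8.10% in DDR1 replicate 2, went with a mitochondrial median of -0.07.

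As shares of all counts, the 13 mitochondrial genes made up 0.935, 2.24, 1.47 and 1.15% in controls and 1.62, 1.48, 1.72 and 1.88% in DDR1 libraries, and the 84 nuclear genes 0.342 to 0.558%. The ratio of mitochondrial to nuclear subunit counts ran from 2.21 in control replicate 1 to 5.07 in control replicate 2, with DDR1 libraries between 2.91 and 5.04. Small transcripts of RNA polymerase III took 12.4, 6.98, 12.3 and 15.1% of counts in controls and 10.9, 8.10, 6.99 and 9.10% in DDR1 libraries. That share was low in the 2 libraries with the highest mitochondrial medians, control replicate 2 and DDR1 replicate 3. The other libraries did not keep this order. DDR1 replicate 2, with 8.10%, had a mitochondrial median of -0.07, and DDR1 replicate 4, with 9.10%, one of 0.44. Control replicates 1 and 3, with 12.4 and 12.3%, had medians of -1 and -0.05. With RNA polymerase III transcripts out of the library sizes, the median log2 fold change was 0.22 for mitochondrial genes, against 0.21. For nuclear genes it was 0.11, against 0.10. Any other part of this share in the result was not tested. Of protein-coding counts alone, the mitochondrial genes still ranged from 1.17 to 2.65%, which is 2.26-fold. The mitochondrial ribosomal RNA MT-RNR2, which is no subunit gene, stood at 15226 CPM in DDR1 replicate 4 against 792 to 5065 CPM in the other 7 libraries.

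Genes that assemble or serve the chain also gave 0 calls in every list examined. Complex I assembly factors had 9 of 14 genes above 0 (median log2 fold change 0.05), those of complexes II and III 6 of 10 (0.05), those of complex IV 7 of 24 entries (-0.08) and those of ATP synthase 3 of 4 (0.07), where all tested genes had a median of -0.003. SDHAF4, which helps insert flavinated SDHA into complex II, was measured at 2.16, 2.21, 2.71 and 1.98 CPM in controls and at 4.22, 3.01, 3.03 and 4.10 CPM in DDR1 libraries. Its groups did not overlap, and its log2 fold change was 0.66 (SE 0.25, edgeR unadjusted p = 0.0279) without passing the adjusted test. Of 25 genes for transcription, replication and RNA stability of mitochondrial DNA, 6 were above 0 and 19 below (median -0.04). PNPT1, a mitochondrial RNA-degrading enzyme, gave -0.61 (SE 0.28) and SLIRP, which stabilises mitochondrial messenger RNA, gave 0.52 (SE 0.26). The tricarboxylic acid cycle and pyruvate dehydrogenase had 13 of 17 above 0 (0.09), import genes 10 of 13 (0.04), electron carriers and ubiquinone synthesis 8 of 11 (0.05) and regulators of biogenesis 6 of 8 (0.05). COQ3, a methyltransferase of ubiquinone synthesis, was measured at 2.71, 2.97, 3.49 and 2.51 CPM in controls and at 4.43, 3.57, 3.60 and 4 CPM in DDR1 libraries. Its groups did not overlap, and its log2 fold change was 0.41 (SE 0.23, edgeR unadjusted p = 0.109). Among all tested genes, the groups of 2.4% did not overlap. SDHAF4 was the only gene of these lists with an edgeR unadjusted p under 0.05, where all genes gave 4.17% in either direction.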

How the data were processed

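RNA was selected on poly-T beads, copied from random hexamers and sequenced as paired ends of 150 bp, per the labels' protocols. FastQC 0.11.9, Trim Galore 0.6.4, STAR 2.7.5, RSEM 1.3.1 and the build GRCh38 are named in the submitters' processing notes; neither the annotation release nor any removal of mouse reads is given in those notes or the protocols. The authors deposited expected counts per gene, estimated with RSEM, and a TMM-normalized table on the log2 scale. The deposited log2 values were used for 1 alternative only.

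Expected counts were rounded to whole numbers, filtered with filterByExpr (minimum count 10), scaled by TMM and fitted over all 18973 genes with edgeR 4.0.16 (limma 3.58.1, R 4.3.3), DDR1 against control, 4 libraries each, with no covariate. Calls needed a Benjamini-Hochberg adjusted p under 0.05. The standard error was derived from the log2 fold change and its F statistic. The script was tested on simulated data. Symbols and coordinates are from GENCODE 29, which matched 58039 identifiers. Length was the median over the transcripts of best principal rank. Log2 CPM used a prior count of 2. With 13716285 to 32271016 counts a library, 3 counts correspond to 0.0862 to 0.229 CPM; this covers counting error only. Reads may be split between subunit genes and their pseudogenes.

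Members and lists were chosen with earlier results of these data known. Named genes were DDR1, MT-CO3, CYC1, all mitochondrial members, the extremes of fold change, p and level in each complex, the paralog sets and up to 4 genes of each list. ATP5F1B, NDUFA7, COX6A1 as the steadiest gene, MT-RNR2 and the promoter examples were named after their values were seen. Alternatives were DESeq2 1.42.0, limma-trend and limma-voom as other tools, 2 further scalings, a filter of 5 CPM in 4 libraries or none, library sizes without mitochondrial genes or RNA polymerase III transcripts, protein-coding genes only, dropping each library in turn, dropping controls by lane and summing libraries of 1 title prefix. Adding near-identical copies to their parent gene was chosen after seeing the data.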

Additional observations from a re-analysis of the deposited data

Results flagged for a closer look

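Within-group outliers were sought by Dixon's criterion on the log scale of CPM among 94 groups of 4 libraries (47 genes by 2 groups). Chance alone flags about 1 in 20 groups, and 4 were found. The values are printed below in plain CPM, on which the criterion was not applied and could flag other groups. MT-ND5 in control replicate 2 (1712 CPM) lay far above the other 3 controls (603 to 650 CPM), and so did MT-ND6 in the same library (302 CPM against 44.6 to 48.3 CPM). COX7A2L in control replicate 3 (45.5 CPM) lay above the other controls (35.0 to 35.5 CPM). COX8A in control replicate 2 (31.5 CPM) lay below the other controls (56.4 to 59.6 CPM). Control replicate 2 holds 3 of the 4, and the part of this library in the comparison is given by the values without it: the median log2 fold change was 0.59 for the 13 mitochondrial genes and 0.11 for the 84 nuclear genes.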

How the results depend on the processing

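The count of subunit genes called was 0 under every alternative run. The count over all genes was 16 in DESeq2 and 0 in every other setting. Subunit genes higher at an unadjusted p under 0.05 numbered 2, and 7 without the lane 7 controls, 0 without the controls with no lane, 3 with DESeq2 and with limma-trend, 1 with limma-voom and 0 to 11 when 1 library was left out. The share of all genes is not given for these alternatives, so the counts have no background beside them. The nuclear median of 0.10 ran from 0.003 (without DDR1 replicate 1) to 0.15 (without DDR1 replicate 3), and was 0.21 without the lane 7 controls and 0.02 without those with no lane. The mitochondrial median of 0.21 ran from 0.04 (without DDR1 replicate 3) to 0.59 (without control replicate 2), and was 0.41 and 0.03 without those controls and -0.05 with title prefixes summed. With prefixes summed, direction turned for MT-ND1 (-0.073), MT-ND2 (-0.12), MT-ND4 (-0.13), MT-ND4L (-0.074), MT-ND5 (-0.051), MT-ND6 (-0.10), MT-CO1 (-0.0057) and ATP5MC3 (0.16). Without the controls with no lane it turned for MT-ND5 (-0.011), MT-ND6 (-0.13), MT-CO1 (-0.054) and SDHB (-0.080), without the lane 7 controls for SDHC (0.15), and for MT-ND3 with limma-voom (0.049) and limma-trend (0.060). Leaving out 1 library gave ranges across 0 for MT-ND1 (-0.048 to 0.59), MT-ND2 (-0.10 to 0.47), MT-ND3 (-0.30 to 0.23), MT-ND4 (-0.024 to 0.48), MT-CO1 (-0.042 to 0.21), SDHB (-0.077 to 0.22), UQCRC1 (-0.28 to 0.019) and ATP5MC3 (-0.39 to 0.061). The cause was not tested; settings that drop or sum libraries have fewer samples. No paired analysis was possible because the numbers in the titles have no stated meaning and the groups share only 1 of them. Genes under 1 CPM, COX6B2 among them, are limited by depth.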
